A study of Homo sapiens with 2 samples.

Results

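Cellular iron handling was followed through 10 genes, picked by name from what they are known to do: the transferrin receptors TFRC and TFR2, the ferritin subunits FTH1 and FTL, the transporters SLC11A2, SLC40A1 and SLC25A37, the iron regulatory proteins ACO1 and IREB2, and the ferritin receptor NCOA4. They were chosen with earlier results of these data known. All 10 were found by symbol in both deposited FPKM tables and, by the Ensembl identifier paired with it there, in the count table of 61806 genes. HEL, a human erythroleukemia cell line whose genotype is labelled WT, was treated for 24 h with L1, a derivative of 3,3′-diindolylmethane, at 1 µM, or with 0.5% DMSO as the vehicle control. Polyadenylated RNA from each condition was sequenced as 1 library, with 32556872 counts for DMSO and 27135647 for L1. The spread between cultures was therefore not measured. No test was run, no p-value is given, and the intervals below cover counting error only.

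Erythroid cells take up iron mainly as transferrin bound to the receptor encoded by TFRC, release it in endosomes, and pass it to mitochondria for heme or to the ferritin shell for storage. When iron is scarce, the iron regulatory proteins bind hairpins called iron-responsive elements. Bound in the 3′ UTR of TFRC they protect the mRNA from decay, and bound in the 5′ UTR of a ferritin mRNA they block its translation. The comparison asks how the RNA of this uptake, storage and export system stood after L1.

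In the L1 library the TFRC transcript was 2.38-fold lower, both ferritin transcripts were about 1.4-fold higher, and the other 7 genes differed by less than 1.2-fold. TFRC alone passed 2-fold, and it did so downward. The iron regulatory proteins that act on these mRNAs were themselves little different in RNA level, with 1.01 times the DMSO level for IREB2 and 0.896 times for ACO1. Within the libraries, the ratio of FTH1 to TFRC reads was 3.34 times as large with L1 as with DMSO. For TFRC the paper on these libraries reports the opposite direction. By replicated RT-qPCR, it found more TFRC RNA in HEL cells after L1 at the same dose and time. The vehicle there held a lower share of DMSO, and the reason for the disagreement was not tested here.

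Iron-responsive elements are where the regulatory proteins are known to bind these mRNAs, so the coding transcripts of GENCODE release 29 (GRCh38) were searched for them. The search took a C, 5 bases, the 6-base loop CAGTGN or CAGAGN, and 5 bases that pair with the first 5, with G-U pairs allowed. The capitals below mark the C and the loop, T stands for U, and each run goes 5′ to 3′ along the transcript, with the strand given after the position. TFRC holds 5 such hairpins, all in its 3′ UTR and all in 3 of its 4 coding transcripts. The first has the loop CAGAGN and the other 4 have CAGTGN.
TFRC hairpin 1, chr3:196051030-196051056, minus: tttatCagtgaCAGAGTtcactataaa
TFRC hairpin 2, chr3:196050980-196051006, minus: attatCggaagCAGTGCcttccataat
TFRC hairpin 3, chr3:196050576-196050602, minus: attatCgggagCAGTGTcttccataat
TFRC hairpin 4, chr3:196050511-196050537, minus: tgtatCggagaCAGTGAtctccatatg
TFRC hairpin 5, chr3:196050464-196050490, minus: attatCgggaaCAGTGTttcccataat

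In each of the 5 TFRC hairpins the 5 bases on either flank pair as well, and any pair of hairpins shares between 15 and 25 of 27 bases. FTH1, FTL and SLC40A1 hold 1 hairpin each, in the 5′ UTR. The FTH1 and FTL hairpins are identical at 25 of 27 bases, while FTH1 and SLC40A1 share 13. SLC40A1 carries its hairpin in 1 of 5 coding transcripts, and FTH1 in 7 of 8.
FTH1 hairpin, chr11:61967575-61967601, minus: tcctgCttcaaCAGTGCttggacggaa
FTL hairpin, chr19:48965336-48965362, plus: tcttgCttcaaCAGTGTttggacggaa
SLC40A1 hairpin, chr2:189580662-189580688, minus: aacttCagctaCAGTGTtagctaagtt

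SLC11A2, whose 3′ hairpin is known to be irregular, has a run with 4 of the 5 pairs in the 3′ UTR of 5 of its 18 coding transcripts.
SLC11A2 hairpin, chr12:50988270-50988296, minus: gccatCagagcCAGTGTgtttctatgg

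TFR2 and NCOA4 hold no match with 4 or more pairs. SLC25A37 holds none in its untranslated regions, and matches in its coding part are not covered here. IREB2 and ACO1 hold 1 run each with 4 of 5 pairs in the 3′ UTR of a single transcript, and SLC11A2 another in the 5′ UTR of a single transcript, none of which was counted as a hairpin. Of 19684 genes with a coding transcript, 0.183% hold a CAGTGN match in the 5′ UTR and 0.671% in the 3′ UTR, and for CAGAGN the shares are 0.254% and 0.630%. A match describes the letters only and was not tested as a binding site here.

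**Figure D1:**
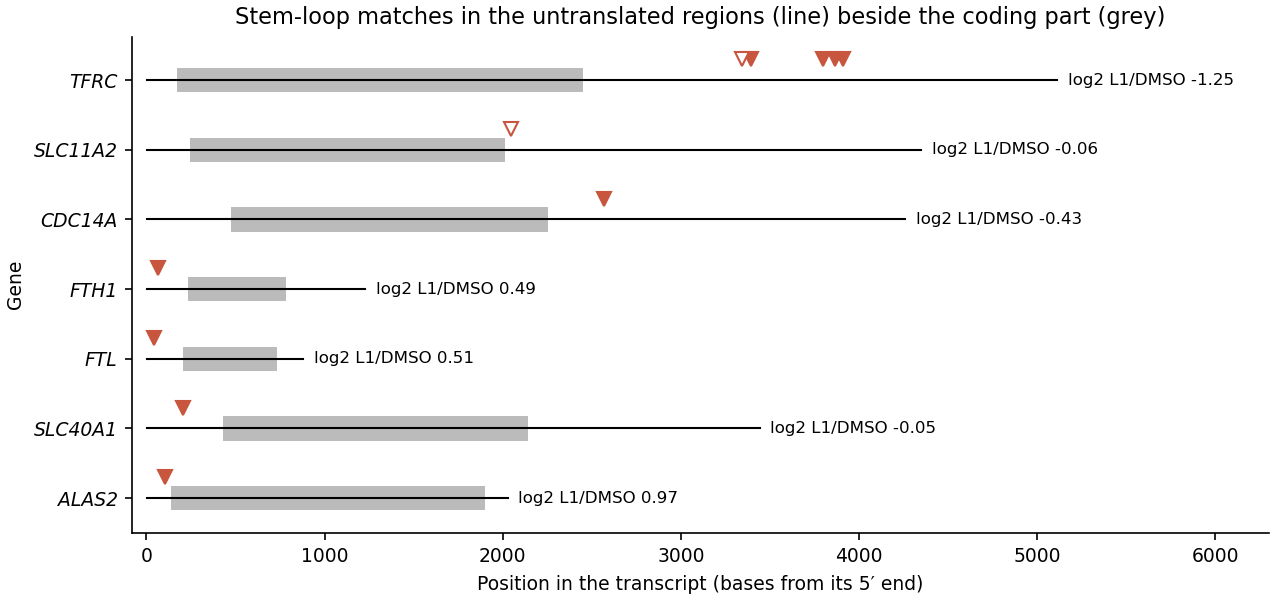
Hairpin matches along 1 coding transcript per gene, with position in bases from the transcript's 5′ end on the horizontal axis, the coding part in grey and the untranslated regions as a line. Filled triangles are CAGTGN loops with 5 of 5 pairs, and open triangles are the CAGAGN loop of TFRC and the SLC11A2 run with 4 of 5 pairs. The log2 ratio of L1 over DMSO stands at the right, from -1.25 for TFRC to 0.97 for ALAS2.

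TFRC (ENSG00000072274, chr3:196027183-196082189) encodes the receptor that carries transferrin-bound iron into the cell. The vehicle library held 17721 TFRC counts and the L1 library 6420. Scaled by edgeR's TMM method over the whole table, these were 554 and 233 CPM (counts relative to the TMM-scaled library total). The log2 ratio of L1 over DMSO was -1.25, with an exact 95% interval (Clopper-Pearson) from -1.29 to -1.21, so its whole interval lay past 2-fold. Among the 8459 genes with at least 1000 counts over both libraries, 101 had a lower ratio than TFRC. Of the 31-base words of the TFRC transcripts, 1.47% are found elsewhere, spread over 387 other genes, and no other gene overlaps its exons in GENCODE release 29.

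TFR2 (ENSG00000106327, chr7:100620416-100642779), a second transferrin receptor that serves in iron sensing and in erythroid cells associates with the erythropoietin receptor, did not show this difference. It had 3473 counts with DMSO against 2959 with L1, or 109 and 107 CPM, for a log2 ratio of -0.02 (95% interval -0.09 to 0.05). The ratio of TFR2 to TFRC reads was 0.196 in DMSO and 0.461 in L1. That is a 2.35-fold change, which needs no library scaling (exact conditional 95% interval of the odds ratio 2.22 to 2.49).

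Among the members, 1 of 10 was at least 2-fold lower and none was at least 2-fold higher. Over all 18123 genes with at least 10 counts in 1 library and a prior count of 2, 4.83% were lower by 2-fold or more and 7.12% were higher by as much. Each of the 10 members had over 1000 counts in each library, and for the genes with at least 1000 counts over both libraries the shares were 1.88% lower and 1.99% higher. The median log2 ratio was -0.00088 over the members and -0.0040 over all 18123 genes. The intervals of 4 members lay above 0, those of TFRC and ACO1 lay below 0, and those of the other 4 held 0.

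**Figure D2:**
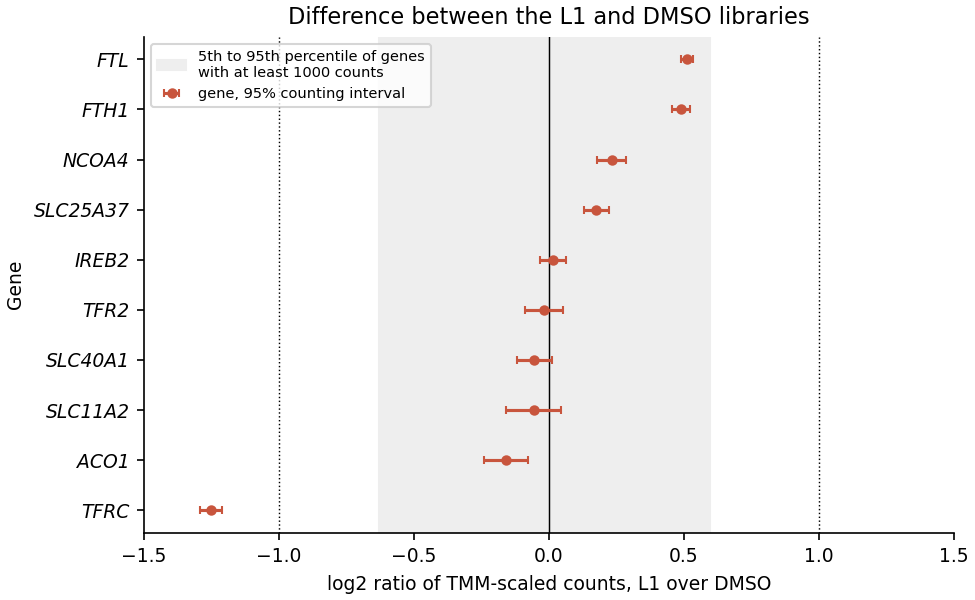
The log2 ratio of TMM-scaled counts in L1 over DMSO (horizontal axis) for each of the 10 genes, with the 95% counting interval as a bar and dotted lines at 2-fold. TFRC lies at -1.25, outside the grey band from -0.63 to 0.60 that spans the 5th to the 95th percentile of genes with at least 1000 counts, and the other genes lie within it.

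Both ferritin subunits were higher in the L1 library, by nearly the same factor. FTL (ENSG00000087086, chr19:48965301-48966878), the light chain of the storage shell, had 26182 counts with DMSO against 32195 with L1. Its scaled level was 818 CPM in DMSO and 1166 CPM in L1, so the log2 ratio was 0.51 (95% interval 0.49 to 0.53). FTH1 (ENSG00000167996, chr11:61959718-61967660), the heavy chain with the ferroxidase activity, had 12112 counts with DMSO against 14664 with L1. Its level was 378 CPM in DMSO and 531 CPM in L1, so the log2 ratio was 0.49 (95% interval 0.45 to 0.52).

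Their place among other genes was less far out than that of TFRC. Of the 8459 genes with at least 1000 counts, 546 had a higher ratio than FTL and 587 a higher one than FTH1. The balance of both subunits did not differ beyond counting error. The ratio of FTL to FTH1 reads was 2.16 in DMSO and 2.20 in L1, a change of 1.02-fold (95% interval 0.986 to 1.05). Read against the receptor, the ratio of FTL to TFRC reads was 1.48 in DMSO and 5.01 in L1, a 3.39-fold change (95% interval 3.28 to 3.51). The ratio of FTH1 to TFRC reads was 0.683 in DMSO and 2.28 in L1 (95% interval of the 3.34-fold change 3.22 to 3.47).

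Ferritin genes have many processed pseudogenes. Read on either strand, 63.0% of the words of FTH1 and 33.3% of those of FTL occur in another gene, pseudogene or not. Counts on 12 FTH1 pseudogenes summed to 323 in DMSO and 462 in L1, which is 2.67% and 3.15% of the FTH1 counts. Added to FTH1 they gave a log2 ratio of 0.50. For FTL, 1 pseudogene, FTLP3, had 34 and 37 counts. BEST1, a chloride channel gene on the opposite strand, shares 62.4% of the exon bases of FTH1. It comes first among the genes that share words with FTH1, ahead of the pseudogenes. BEST1 had 161 counts with DMSO against 965 with L1, for a log2 ratio of 2.80 (95% interval 2.55 to 3.05). Whether the counting used strand is not given in the sources used here, so reads of FTH1 and BEST1 cannot be told apart. Summed over both, the log2 ratio was 0.56.

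NCOA4 (ENSG00000266412, chr10:46005088-46030714) delivers ferritin to lysosomes, where its iron is released. It had 5698 counts with DMSO against 5775 with L1, or 178 and 209 CPM, for a log2 ratio of 0.23 (95% interval 0.18 to 0.29). This difference was smaller than that of ferritin itself. The ratio of NCOA4 to FTH1 reads was 0.470 in DMSO and 0.394 in L1, or 0.837 times as large (95% interval 0.801 to 0.875). The NCOA4 pseudogenes had no counts.

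For the iron transporters of the endosome and the cell surface, the TMM-scaled intervals held 0. SLC11A2 (ENSG00000110911, chr12:50979401-51028566), which moves iron from endosomes to the cytosol, had 1738 counts with DMSO against 1441 with L1. Its level was 54.3 and 52.2 CPM, for a log2 ratio of -0.06 (95% interval -0.16 to 0.04). SLC40A1 (ENSG00000138449, chr2:189560579-189583758) encodes ferroportin, the exporter of cellular iron. It had 4207 counts with DMSO against 3495 with L1, or 131 and 127 CPM, for a log2 ratio of -0.05 (95% interval -0.12 to 0.01). With DESeq2 size factors the SLC40A1 interval lay below 0 (-0.15 to -0.02). The ratio of SLC40A1 to FTH1 reads in L1 was 0.686 times that in DMSO (95% interval 0.652 to 0.722). Both mRNAs have a coding transcript with a 5′ hairpin, and its part in these values was not tested.

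SLC25A37 (ENSG00000147454) encodes mitoferrin-1, which imports iron into mitochondria of erythroid cells. Its 7671 counts with DMSO against 7476 with L1 gave 240 and 271 CPM, for a log2 ratio of 0.18 (95% interval 0.13 to 0.22). The value was past counting error and well under 2-fold.

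The iron regulatory proteins differed little. IREB2 (ENSG00000136381, chr15:78437431-78501456), which encodes IRP2, had 7590 counts with DMSO against 6622 with L1, or 237 and 240 CPM. Its log2 ratio was 0.02 (95% interval -0.03 to 0.06), and the interval lay above 0 under total counts (0.02 to 0.11) and upper quartile scaling (0.0070 to 0.10). ACO1 (ENSG00000122729, chr9:32384603-32454769) encodes IRP1, which works as cytosolic aconitase when it holds an iron-sulfur cluster. It had 2864 counts with DMSO against 2213 with L1, or 89.5 and 80.2 CPM, for a log2 ratio of -0.16 (95% interval -0.24 to -0.08). The ratio of IREB2 to ACO1 reads was 2.65 in DMSO and 2.99 in L1, a 1.13-fold change (95% interval 1.06 to 1.21). These are RNA levels, and both proteins are known to be controlled mainly after transcription.

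Levels between genes were compared per length. On the deposited FPKM scale FTL led, with 946 in DMSO and 1348 in L1, and FTH1 followed with 190 and 267. NCOA4 had an FPKM of 44.9 in DMSO and 52.8 in L1, while TFRC had 32.1 and 13.5. SLC40A1 (31.4 and 30.2) and SLC25A37 (30.2 and 34.1) lay close to TFRC in DMSO. IREB2 had 22.1 and 22.4, TFR2 had 21.6 and 21.3, ACO1 had 11.9 and 10.7, and SLC11A2 had 5.53 and 5.31. TFRC thus moved from rank 4 of the 10 genes in DMSO to rank 8 in L1, and its rank among all 13924 genes with an FPKM went from 1381 to 3425.

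The order near TFRC turned on the gene length used. Dividing the scaled counts by the FPKM gave a length of 17.3 kb behind the TFRC value, 3.38 times the 5111 bases of its longest coding transcript in GENCODE release 29. For FTL and ACO1 this factor was 0.985 and 1.01, for FTH1 1.62, and for SLC11A2 2.26. Per kilobase of the longest coding transcript, TFRC had 108 CPM in DMSO and 45.5 in L1, ranks 3 and 5. On this scale TFRC stayed above TFR2 in the L1 library (1.33 times its level), whereas on the FPKM scale it was below (0.632 times). FTL was 4.97 times FTH1 by FPKM in DMSO and 3.03 times per kilobase of transcript. The ratio of L1 over DMSO for a gene is the same on both scales, since the deposited FPKM carry the library ratio that TMM gives.

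**Figure D3:**
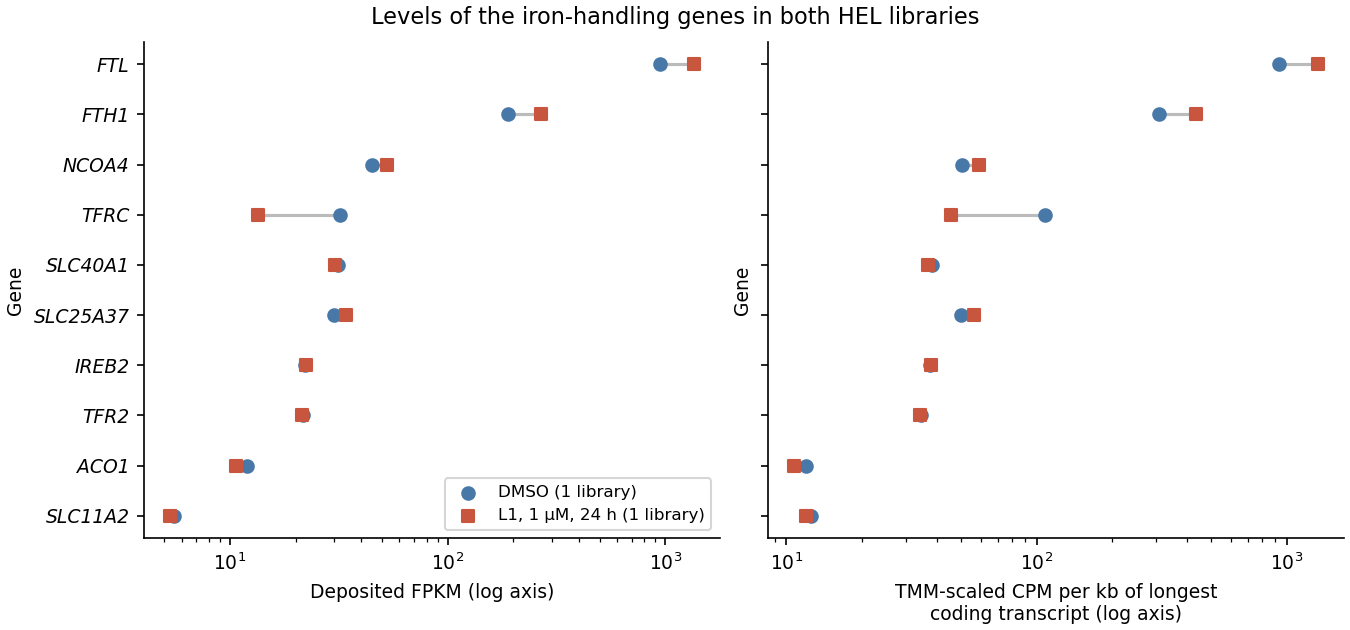
Levels of the 10 genes in the DMSO library (circles) and the L1 library (squares), as deposited FPKM on the left and as TMM-scaled CPM per kilobase of the longest coding transcript on the right, both on log axes. TFRC goes from 32.1 to 13.5 FPKM, and from 108 to 45.5 CPM per kilobase, while FTL and FTH1 move the other way.

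**Figure D4:**
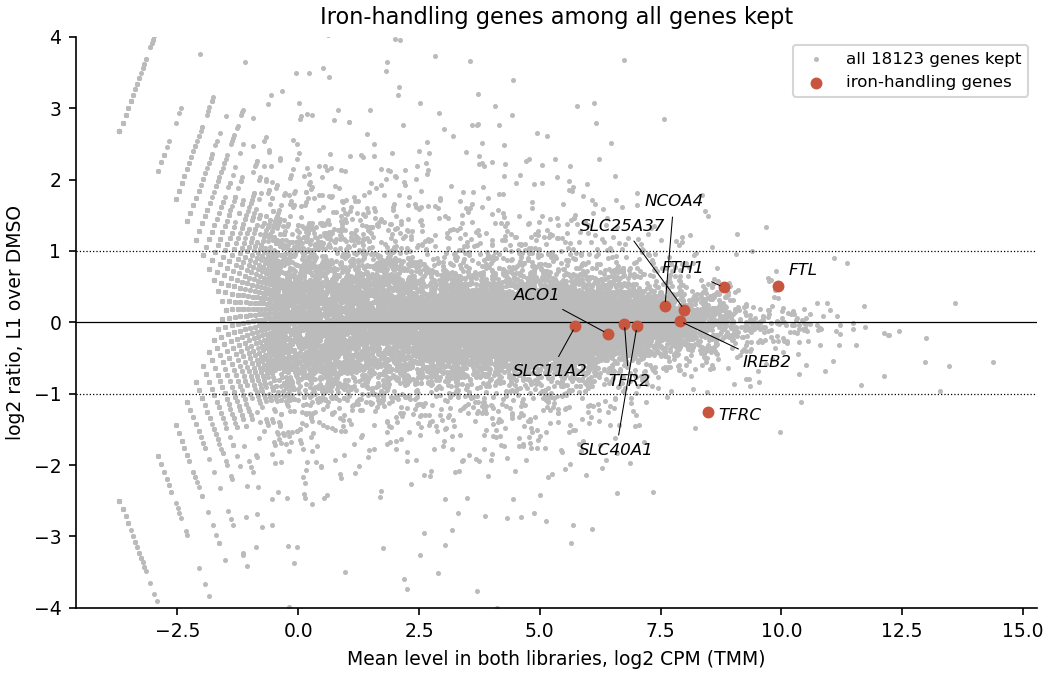
Each of the 18123 genes kept as a grey point, with the mean level in log2 CPM on the horizontal axis and the log2 ratio of L1 over DMSO on the vertical axis, cut at 4 on either side (81 genes lie outside). The 10 iron-handling genes are labelled, and TFRC at -1.25 is the only one past the dotted 2-fold lines.

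Erythroid and megakaryocytic RNAs were both present, as is known for HEL. Of 12 erythroid markers, 11 had at least 10 counts and AHSP was at 0, and the summed level was 1879 CPM in DMSO and 2637 in L1. Of 7 megakaryocytic markers, 6 had at least 10 counts and PF4 was at 0, and the sum was 1926 CPM in DMSO and 1715 in L1. The sums for lymphoid, for monocytic and granulocytic, and for epithelial and fibroblast markers were at most 20.2 CPM in either library, with CD3E, CD3D, MS4A1, MPO, ELANE and EPCAM among those at 0 in both. The erythroid sum moved with the ferritin genes and against TFRC, and its part in these differences was not tested. In bulk RNA, fewer cells of a type and less RNA per cell cannot be told apart.

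Beyond the 10 genes, 91 other genes of iron biology were taken from 8 lists by function, and 82 had at least 10 counts in 1 library. Of these, 3 were higher by 2-fold or more (3.66%) and 1 was lower by as much (1.22%), beside shares of 7.12% and 4.83% over all genes. Among the 66 with at least 1000 counts over both libraries, 1 was higher (MYC, 1.52%) and 0 were lower, beside 1.99% and 1.88% over all genes counted that deeply. Their median log2 ratio was 0.07.

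Heme breakdown and transport held 3 of the 4 genes past 2-fold. HMOX1, the inducible heme oxygenase that frees iron from heme, had 58 counts with DMSO against 176 with L1, for a log2 ratio of 1.81 (95% interval 1.38 to 2.27). ABCG2, an exporter of heme and drugs, had 99 and 209 counts, a log2 ratio of 1.29 (95% interval 0.94 to 1.65). FLVCR2, a transporter of the same family as the heme exporter FLVCR1, had only 17 counts with DMSO against 6 with L1. It was thus lower in L1, with a log2 ratio of -1.29 and an interval that held 0 (95% interval -2.92 to 0.12). BLVRB, a biliverdin reductase, had a log2 ratio of 0.33. The other 6 genes of the list, among them HMOX2 and FLVCR1, were within 2-fold, and the list median was 0.14 over 10 genes.

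Iron uptake and the transferrin cycle had no gene past 2-fold among 15 kept. LTF (lactotransferrin) had 84 counts with DMSO against 128 with L1, for a log2 ratio of 0.82 (95% interval 0.41 to 1.24). TF itself had 98 and 120 counts, a log2 ratio of 0.51 (95% interval 0.11 to 0.91). DNM2, the dynamin that pinches off endocytic vesicles, had a log2 ratio of 0.42. STEAP3, the endosomal ferrireductase of erythroid cells, had 1275 counts with DMSO against 832 with L1, for a log2 ratio of -0.40 (95% interval -0.53 to -0.28), and is named outside the rule for its role beside TFRC. STEAP2 and SH3BP4 had 0 counts in both libraries, which allows up to 3 counts in each.

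In the list of storage, chaperones and ferritin turnover, 8 genes were kept and none passed 2-fold. HERC2, a ubiquitin ligase that acts on NCOA4, had 10731 counts with DMSO against 13841 with L1, for a log2 ratio of 0.58. SKP1 (0.44) and CUL1 (0.37), parts of the ligase that removes IRP2, were higher as well. FBXL5, the iron-sensing subunit of that ligase, had 841 and 608 counts, a log2 ratio of -0.25 (95% interval -0.41 to -0.10).

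Assembly of iron-sulfur clusters showed no common direction. Of 20 mitochondrial genes, 10 were above 0 and 10 below, with a median of 0.0054. FDX2, a ferredoxin, had a log2 ratio of 0.66, while SLC25A28, the mitoferrin of non-erythroid cells, had -0.45. Among 11 cytosolic genes the median was 0.06. NUBP2, a scaffold of that pathway, had 972 counts with DMSO against 500 with L1 (log2 ratio -0.75), CIAO2A had 0.33, and BOLA2 had 0.47. BOLA2 has a near-identical copy, so its value is uncertain.

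In the list of export and systemic control, 6 of 10 genes were kept and none passed 2-fold. CP, HAMP, HJV and TMPRSS6, known chiefly from liver, had at most 2 counts in a library. BMP6, the signal that induces hepcidin, had 1331 counts with DMSO against 2245 with L1, for a log2 ratio of 0.97 (95% interval 0.87 to 1.07). ACVR1, a receptor for that signal, had -0.54, and HEPH, a ferroxidase that helps export, had -0.27. The median over 6 genes was -0.16.

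Other mRNAs known to carry an iron-responsive element went both ways. ALAS2, which starts erythroid heme synthesis, holds a CAGTGN hairpin in its 5′ UTR and had 655 counts with DMSO against 1108 with L1, for a log2 ratio of 0.97 (95% interval 0.83 to 1.11). CDC14A, with a hairpin in the 3′ UTR of 1 of 8 coding transcripts, had -0.43. EPAS1 had -0.43 as well, and this search found no match in it. Grouped by hairpin after their values were seen, FTH1, FTL, SLC40A1 and ALAS2 with a 5′ hairpin ranged from -0.05 to 0.97, and those with a 3′ hairpin, TFRC, CDC14A and CDC42BPA, from -1.25 to -0.17.

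Factors known to act on the TFRC gene or mRNA were also listed. MYC, which activates TFRC transcription, had 724 counts with DMSO against 1527 with L1, for a log2 ratio of 1.29 (95% interval 1.16 to 1.42). STAT5B had 3521 and 5864 counts (log2 ratio 0.95), while STAT5A had -0.04. RC3H1, an RNA-binding protein that speeds decay of some mRNAs, had 142 and 202 counts, a log2 ratio of 0.72. ZC3H12A, an RNase that cleaves the TFRC mRNA, had -0.05. The median over 7 genes was 0.40. These are RNA levels, and the part of these factors in the TFRC value was not tested.

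**Figure D5:**
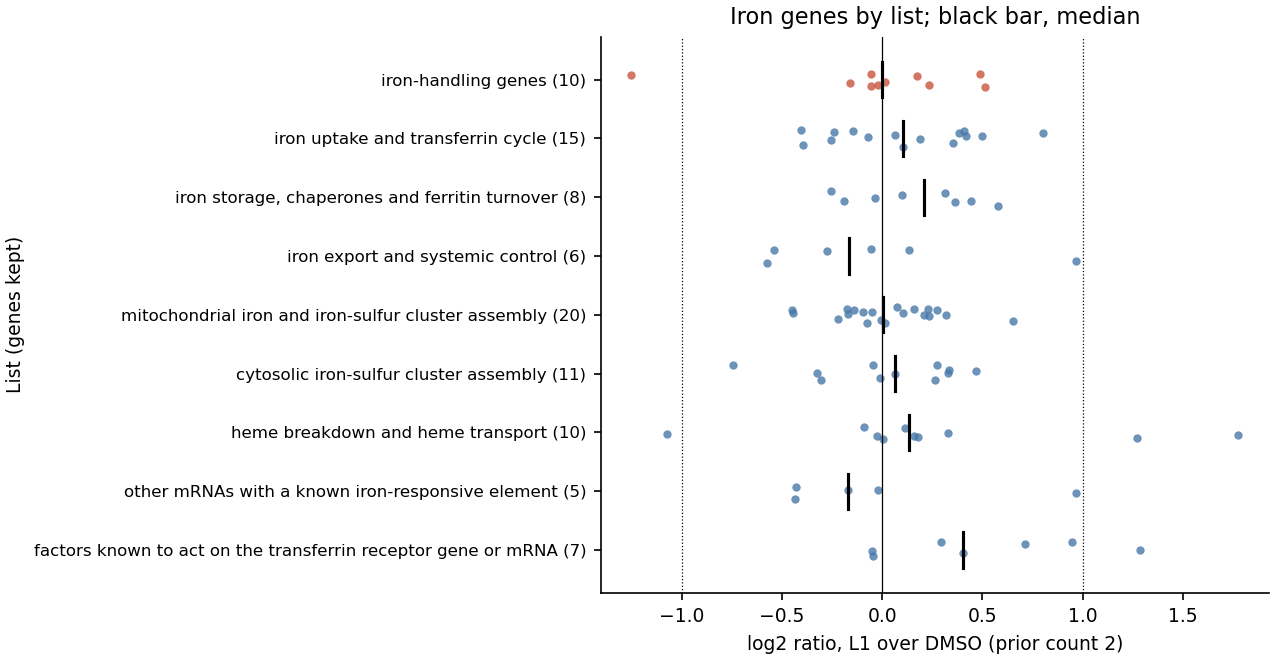
The log2 ratio of L1 over DMSO with a prior count of 2 (horizontal axis) for each gene kept, by list, with the number kept in brackets and the median as a black bar. In the top row TFRC at -1.25 stands apart from the other iron-handling genes, and HMOX1 at 1.78 on this scale is the farthest to the right in any list.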

How the data were processed

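Gene expression was measured in 1 DMSO and 1 L1 library of HEL cells. HISAT2 2.1.0 aligned the reads, and the submitters' processing notes also name fastp 2.0, StringTie and hg38 without saying what each was used for. The authors deposited raw read counts for 61806 genes, without normalization, and FPKM values for 13924 genes. The counting program, its strand setting and its annotation are not given in the sources used here.

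Libraries were scaled by TMM in edgeR 4.0.16 and, as an alternative, by the size factors of DESeq2 1.42.0 (R 4.3.3). Other steps used Python 3.11.15, scipy 1.17.1 and pandas 2.3.3. Calls of 2-fold used a prior count of 2 and genes with at least 10 counts in 1 library. Positions, exon overlaps, shared 31-base words and hairpins were read from the GRCh38 annotation of GENCODE release 29, where 58254 identifiers matched. The scripts were tested on simulated data. Intervals and limits cover counting error only, since each condition has 1 library. PCR copies are not independent molecules, so even for counting error the intervals may be too narrow.

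The 10 genes and the lists were chosen with earlier results of these data known. From each list the text names, among genes whose higher library has at least 100 counts, every gene past 2-fold and the 3 farthest from 0. STEAP3, FBXL5, HMOX2, FLVCR1, FLVCR2, STAT5A, ZC3H12A, CDC42BPA and genes at or near 0 counts are named outside this rule, and a few items that it or the lists cover are not reported here. The hairpin search, BEST1 summed with FTH1, and levels per kilobase of the longest coding transcript were added after the values were seen.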

Additional observations from a re-analysis of the deposited data

How the results depend on the processing

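No paired analysis was possible because the labels give a single library for either condition, and for the same reason no replicate could be left out. Under total counts, DESeq2 size factors, upper quartile scaling, both FPKM pseudocounts, prior counts of 0.5 and 5, a 1.5-fold threshold, the whole interval past 2-fold, and counts summed with pseudogenes, 1 member (TFRC) was at least 2-fold lower and none higher. At 3-fold there were 0. Summing with overlapping genes of the same strand changed nothing, since no member has one. The log2 ratio of TFRC ranged from -1.28 to -1.19, that of FTH1 from 0.46 to 0.56 and that of FTL from 0.48 to 0.56. Of 54 values of the members, 10 left the counting interval and none changed sign where that interval excluded 0, while TFR2 and IREB2, whose intervals hold 0, took either sign (TFR2 -0.05 to 0.03, IREB2 -0.01 to 0.07). The FPKM settings carry the library ratio of TMM and differ from the main values by the pseudocount alone. They are thus a weak check, here and in the number of members past 2-fold, and the NCOA4 pseudogenes added no counts. None of the 12 values for ratios of members left its interval. Of these, 7 use FPKM, where gene length and library scaling cancel, so they had to match and are no check. List medians shifted by at most 0.13 (log2). That of export and systemic control went from -0.16 to -0.06 at 100 counts and -0.04 with log2(FPKM + 1), that of storage from 0.21 to 0.10 in the same settings, and that of mitochondrial iron took either sign (-0.03 to 0.05).

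The number of other iron genes at least 2-fold higher went from 3 to 5 under total counts and to 5 under upper quartile scaling. With at least 1000 counts over both libraries, a filter chosen after seeing the data, there was 1. The number lower went from 1 to 0 with either FPKM pseudocount and to 0 at a minimum of 100 or of 1000 counts, since FLVCR2 has no FPKM and fewer counts than that. Over all genes, the 1290 higher and 876 lower moved to 3544 and 1811 with no filter, 694 and 491 with 10 counts in both libraries, 387 and 361 at 100 counts, and 688 and 502 for protein-coding genes, where fewer or more genes enter. With log2(FPKM + 1) they were 199 and 153, where both the genes entered and the pseudocount differ. Low counts limit these numbers, and the missing replicates limit the rest.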

Other observations

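Hairpins like those of TFRC and ferritin occur in other mRNAs, and their genes were looked up after the values of the members were seen. A CAGTGN hairpin with 5 of 5 pairs lies in the 5′ UTR of 36 genes, of which 26 were kept. Without FTH1, FTL and SLC40A1, the other 23 had a median log2 ratio of 0.03, with 1 gene at least 2-fold higher (ENC1, 523 counts in DMSO and 1378 in L1) and 1 lower (CACNA1D, 74 and 30 counts). In the 3′ UTR the hairpin lies in 132 genes, of which 107 were kept. Without TFRC, the other 106 had a median of -0.07, with 5 genes at least 2-fold higher and 5 lower, or 4.72% each way, beside 7.12% higher and 4.83% lower over all genes. These shares are no larger than those of all genes, so the genes named next are a description only. Among those with at least 100 counts, SLC39A9 (391 and 2135 counts), PEX26 (397 and 1672) and MBNL3 (299 and 1075) were higher in L1. ACVR2B (1777 and 487 counts), POLD3 (1668 and 506) and ZBTB3 (104 and 7) were among the lower ones. Whether any of these hairpins binds an iron regulatory protein in HEL cells was not tested.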
